A study of Homo sapiens with 8 samples.

Results

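The AP-1 family was examined in LM2 breast cancer cells after kinase inhibition with Ponatinib and after knockdown of the kinases ABL1 and ABL2. Its members were taken by gene symbol as 3 JUN genes (JUN, JUNB, JUND), 4 FOS genes (FOS, FOSB, FOSL1, FOSL2), ATF3 and BATF3, which are 9 of the 58688 genes counted. AP-1 is a transcription factor made of pairs of basic leucine zipper proteins. JUN proteins can pair with each other or with FOS and ATF proteins, whereas FOS proteins need a partner, so the set of members a cell makes shapes the dimers it can form. Many members are immediate-early or delayed-early genes of growth factor and MAP kinase signaling, and AP-1 is widely studied in the invasion of breast cancer cells.

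RNA-seq read counts of 8 samples in 6 groups were analysed. LM2 is a lung-metastatic derivative of MDA-MB-231, a triple-negative human breast cancer line, and all samples were LM2 cells grown in serum. Ponatinib is a multi-kinase inhibitor that includes ABL1 among its targets. It was given at 1 µM for 6 h (2 samples), against DMSO (2 samples). Stable lines made with lentiviral short hairpin RNA (shRNA) carried a scrambled sequence (shCtrl), ABL1 shRNA, ABL2 shRNA or both (ABL1/ABL2 shRNA). Each of these lines had 1 sample, so a line and its treatment cannot be told apart. The sources do not say whether the DMSO and Ponatinib samples came from separate cultures, and p-values measure only the spread between these samples, which may be technical.

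Total counts on genes ranged from 7568934 to 13010896 per sample, and 3 counts, the limit that a count of 0 allows, corresponded to 0.231 to 0.396 CPM (read counts relative to the size of the library). Levels below are CPM after TMM normalization, and per-kilobase levels are divided by the length of the gene's canonical transcript. Levels in drug and shRNA samples were not compared with each other, because the sets differ beyond their treatments. There were 68 genes that reached 100 counts throughout the drug set and had 0 throughout the shRNA set. The tests of single knockdown lines below took their spread from the drug set, and whether it holds for the shRNA lines was not tested. ABL1 was at 188.7 CPM in shCtrl, 72.3 CPM with ABL1 shRNA, 201.2 CPM with ABL2 shRNA and 108.6 CPM with ABL1/ABL2 shRNA. ABL2 was at 234.8, 211.2, 92.9 and 146.7 CPM in the same order, so each targeted gene was lower where the label says so. Markers of the line were present, with the mesenchymal gene VIM at 1864 to 3145 CPM. The keratin genes KRT8 and KRT18, also on this list, were at 244 to 801 CPM and 143 to 309 CPM. KRT8 was at 472.9 CPM in shCtrl and 801.2, 291.9 and 626.9 CPM with ABL1, ABL2 and ABL1/ABL2 shRNA. Of the luminal and epithelial genes expected to be low, PGR was at 0 CPM in every sample, ESR1 reached 0.89 CPM and CDH1 1.76 CPM. CDH1 had 4 counts in shCtrl and 23, 2 and 20 counts with ABL1, ABL2 and ABL1/ABL2 shRNA. GATA3 was at 7.12 to 9.63 CPM and EPCAM at 4.99 to 11.9 CPM. Of 5 markers of other cell types, PTPRC (leukocytes) reached 0.26 CPM and CD68 (macrophages) 0.35 CPM in any sample. In the drug set, COL3A1 reached 0.39 CPM, PECAM1 was at 2.34 to 3.99 CPM and COL1A1, a collagen gene of fibroblasts, at 62.4 to 84.0 CPM. Their summed level was 67.3 and 66.3 CPM in DMSO and 88.4 and 78.6 CPM after Ponatinib, where COL1A1 rose by 0.34 on the log2 scale (SE 0.08, edgeR adjusted p = 0.0033). Its part in the results was not tested.

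To ask how Ponatinib changed the family, the 2 treated samples were compared with the 2 DMSO samples. JUN and FOSL1, the members with the most mRNA per kilobase in DMSO, fell 4.54-fold and 5.10-fold, whereas JUND, FOSL2 and ATF3 rose. Of the 9 members, 8 passed the test (adjusted p under 0.05, edgeR quasi-likelihood test), 3 higher and 5 lower, against 30.7% of the 16031 genes tested (15% higher and 15.7% lower). With a fold over 2 in addition, 4 members passed (JUN, FOSL1, FOS and ATF3), against 4.83% of all genes. The Ponatinib and DMSO samples did not overlap for any of the 9 members, which was the case for 64.9% of all genes. The median log2 fold change of the members was -0.55, and that of all genes was close to 0. In bulk RNA, a lower level in every cell and fewer cells with the transcript cannot be told apart.

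**Figure D1:**
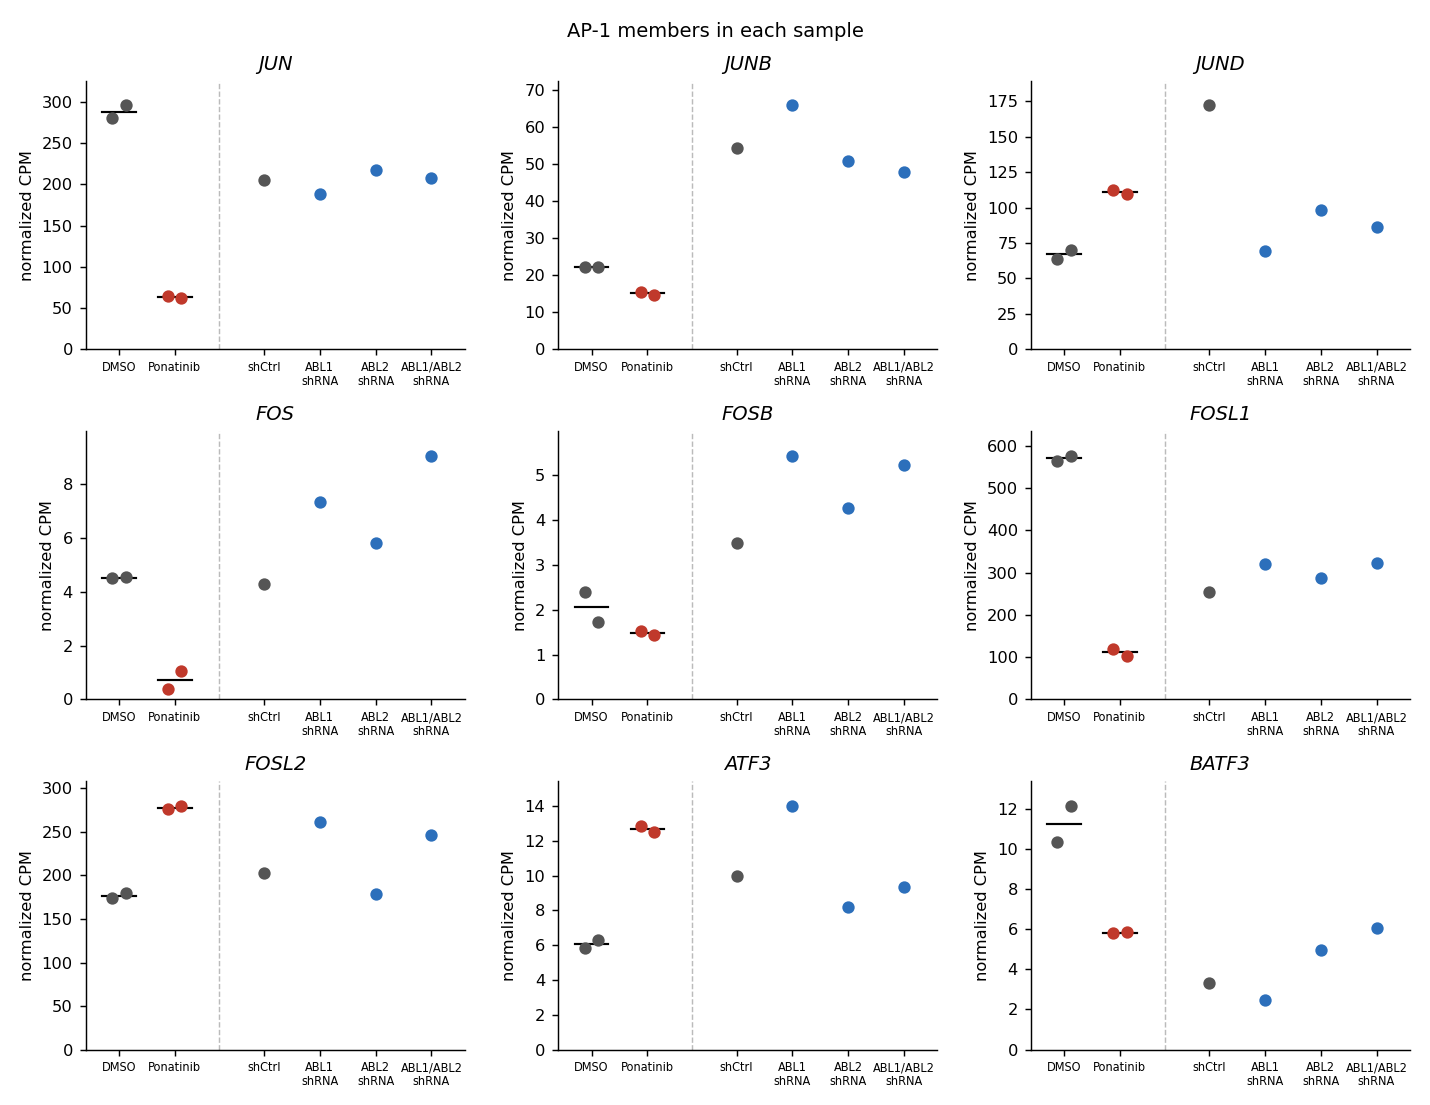
Level of each AP-1 member in each of the 8 samples (normalized CPM on the y axis, which starts at 0; 1 point per sample, with a horizontal line at the mean of the DMSO and Ponatinib pairs). JUN and FOSL1 lie far lower in the Ponatinib samples than in DMSO, JUND, FOSL2 and ATF3 lie higher, and JUND is highest in shCtrl among the shRNA lines.

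JUN (ENSG00000177606.6, GRCh38 chr1:58776845-58784048, minus strand) encodes c-Jun, which forms AP-1 with FOS proteins and acts on its own promoter. It was at 280.6 and 295.5 CPM in DMSO and at 64.9 and 61.7 CPM after Ponatinib. The treated samples were far below both controls and close to each other. The mean fell from 288 ± 10.6 to 63.3 ± 2.29 CPM (SD, n = 2 per group), which is -2.18 on the log2 scale (SE 0.07, edgeR adjusted p = 1.4e-11). Leaving out any 1 sample gave -2.22 to -2.14.

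Promoter windows of 250 bases before to 50 bases after the RefSeq start (GRCh38.p14) were at hand for 7 of the 9 members, in 8 windows, of which ATF3 had 2. FOSL1 and BATF3 were not in the table. They were searched on both strands for TGACTCA (the classical AP-1 element), TGACGTCA (the cAMP response element, also used by JUN/ATF dimers) and the elements known from the JUN promoter, TGACATCA and TTACCTCA. Among 35116 promoters of this length, 4.95%, 1.85%, 2.61% and 0.715% held them. No match overlapped another. The JUN promoter held TTACCTCA from -186 to -179 and TGACATCA from -67 to -60, and JUND held TGACGTCA from -200 to -193. These promoters are shown because the genes moved in opposite directions while each holds an element of this kind, with the matches in capitals. Both run 5′ to 3′ on the gene's minus strand and stop at the annotated gene.
JUN chr1:58784049-58784297: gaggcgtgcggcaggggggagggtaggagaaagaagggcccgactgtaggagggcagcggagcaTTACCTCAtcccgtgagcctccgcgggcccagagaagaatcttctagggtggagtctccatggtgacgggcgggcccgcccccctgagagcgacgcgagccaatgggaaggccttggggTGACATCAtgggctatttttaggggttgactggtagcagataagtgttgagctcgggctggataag
JUND chr19:18281623-18281872: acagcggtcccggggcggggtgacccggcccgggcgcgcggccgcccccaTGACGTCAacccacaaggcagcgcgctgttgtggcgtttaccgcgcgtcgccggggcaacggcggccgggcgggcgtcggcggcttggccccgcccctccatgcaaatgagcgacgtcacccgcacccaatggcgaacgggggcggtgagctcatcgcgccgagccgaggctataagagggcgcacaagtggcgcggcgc

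JUND (ENSG00000130522.5, chr19:18279694-18281622, minus strand) encodes JunD, a JUN protein often present in resting cells. It was at 63.9 and 70.4 CPM in DMSO and at 112.2 and 109.3 CPM after Ponatinib. Both treated samples were above both controls. Its log2 fold change was 0.73 (SE 0.07, edgeR adjusted p = 2e-06).

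JUNB (ENSG00000171223.5, chr19:12791486-12793315, plus strand) encodes a JUN protein that can oppose c-Jun at some promoters. It was at 22.2 CPM in both DMSO samples and at 15.5 and 14.7 CPM after Ponatinib. The decrease was smaller than that of JUN, with a log2 fold change of -0.55 (SE 0.12, edgeR adjusted p = 0.0023). JUNB exons overlap those of HOOK2 on the opposite strand, and the strand setting of the count is not given in the sources used here, so reads of the shared bases cannot be assigned. The JUN genes therefore split, with JUN and JUNB lower and JUND higher.

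Among the FOS genes, FOSL1 (ENSG00000175592.5, chr11:65892049-65900573, minus strand) encodes FRA-1, a FOS protein without the activation domain of c-Fos that is abundant in invasive breast cancer lines. It was at 562.8 and 576.5 CPM in DMSO and at 120.2 and 102.4 CPM after Ponatinib. Both treated samples were far below the controls, with a log2 fold change of -2.35 (SE 0.07, edgeR adjusted p = 1.4e-11).

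FOSL2 (ENSG00000075426.8, chr2:28392448-28417317, plus strand) encodes the related FRA-2. It was at 173.9 and 179.3 CPM in DMSO and at 275.9 and 280.1 CPM after Ponatinib. FOSL2 was thus higher in both treated samples, by 0.65 on the log2 scale (SE 0.06, edgeR adjusted p = 1e-06), while FOSL1 was lower. The FOSL2 window held TGACTCA from +5 to +11, just after the RefSeq start. The 30 bases around it on the plus strand are shown as the single classical AP-1 element found among these windows, with the element in capitals.
FOSL2 chr2:28392851-28392880: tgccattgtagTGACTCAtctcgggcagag

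FOS (ENSG00000170345.6, chr14:75278826-75282230, plus strand) encodes c-Fos, the partner of c-Jun made soon after a stimulus. It had 51 and 45 counts (4.51 and 4.56 CPM) in DMSO and 4 and 8 counts (0.38 and 1.04 CPM) after Ponatinib. The counts were low in every sample, and lowest in the treated samples. The log2 fold change was -2.75 (SE 0.37, edgeR adjusted p = 4.8e-05), and it ran from -3.54 to -2.10 when 1 sample was left out. FOSB (ENSG00000125740.10, chr19:45467995-45475179, plus strand), another c-Fos relative, had 27 and 17 counts in DMSO and 16 and 11 after Ponatinib. At this depth its difference of -0.48 on the log2 scale (SE 0.34, edgeR adjusted p = 0.31) did not pass the test. The FOS and FOSB windows held none of the 4 elements.

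ATF3 (ENSG00000162772.13, chr1:212565334-212620777, plus strand) is a stress-induced partner of JUN proteins. It was at 5.84 and 6.28 CPM in DMSO and at 12.8 and 12.5 CPM after Ponatinib, so that both treated samples were above both controls. The log2 fold change was 1.07 (SE 0.16, edgeR adjusted p = 0.00014). The earlier of its windows held TGACATCA from -123 to -116 and the other held none. The stretch of that window before the annotated gene, on the plus strand, is shown because the element is the one that JUN holds, while JUN fell.
ATF3 chr1:212565157-212565333: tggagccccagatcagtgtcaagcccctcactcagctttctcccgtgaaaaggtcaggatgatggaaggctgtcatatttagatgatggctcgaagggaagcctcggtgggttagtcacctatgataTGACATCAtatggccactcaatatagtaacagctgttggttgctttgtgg

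BATF3 (ENSG00000123685.5, chr1:212686417-212699840, minus strand) encodes a short basic leucine zipper protein that pairs with JUN and is best known from dendritic cells. It was at 10.4 and 12.2 CPM in DMSO and at 5.80 and 5.86 CPM after Ponatinib. The treated samples were lower, with a log2 fold change of -0.94 (SE 0.17, edgeR adjusted p = 0.00076).

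**Figure D2:**
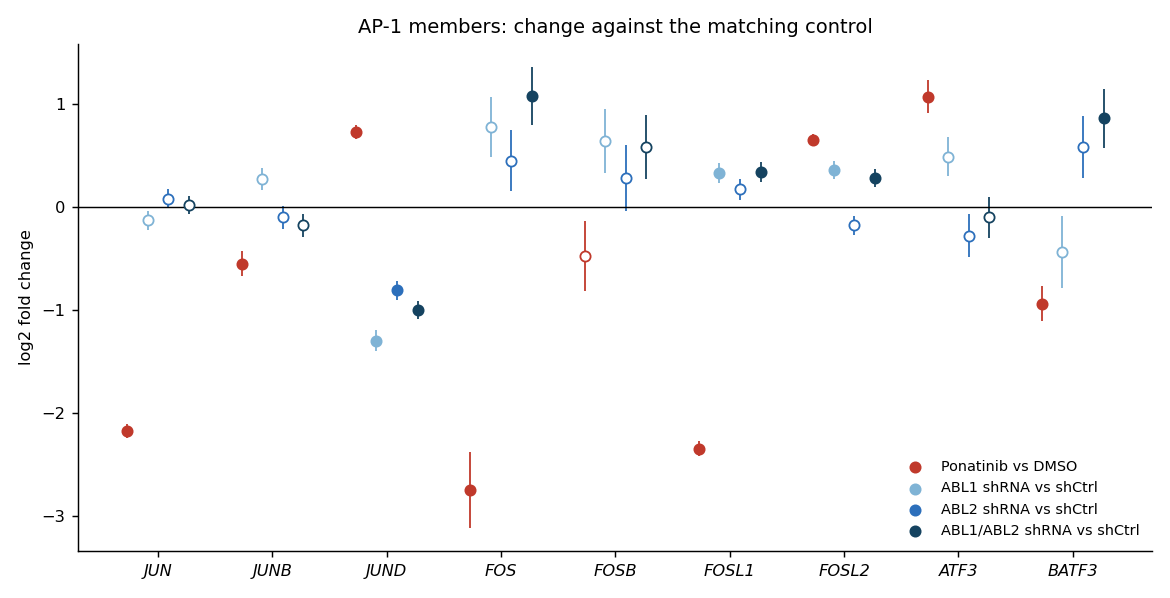
Log2 fold change of each member after Ponatinib against DMSO and in each ABL shRNA line against shCtrl, with the symbols on the x axis and bars of 1 standard error. Filled points passed an adjusted p of 0.05 and open points did not. In the shRNA lines each point is 1 library against 1, and its bar and call rest on the spread of the DMSO and Ponatinib pairs. JUN and FOSL1 are near -2.2 and -2.4 after Ponatinib and between -0.13 and 0.34 in the shRNA lines.

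To compare levels between members, counts were divided by transcript length. In DMSO, FOSL1 led with 335 ± 5.69 CPM per kilobase (SD, n = 2), followed by JUN with 88.4 ± 3.24, JUND with 34.8 ± 2.38 and FOSL2 with 26.3 ± 0.561. BATF3 (13.5 ± 1.52) and JUNB (12.1 ± 0.0145) came next and lay close together. ATF3 was at 3.12 ± 0.159, FOS at 2.16 ± 0.0145 and FOSB at 0.545 ± 0.1252. After Ponatinib, FOSL1 (65.4 ± 7.37) and JUND (57.4 ± 1.05) had moved close to each other, FOSL2 was at 41.4 ± 0.44 and JUN at 19.4 ± 0.704. Then came JUNB (8.25 ± 0.305), BATF3 (6.97 ± 0.0484), ATF3 (6.53 ± 0.124), FOSB (0.391 ± 0.0168) and FOS (0.338 ± 0.222), of which the last 2 lay within their spread.

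The family total fell from 506 and 525 CPM per kilobase in DMSO to 212 and 200 after Ponatinib, and its composition shifted from JUN and FOSL1 to JUND and FOSL2. JUN and FOSL1 together held 82.3% and 81.8% of the family's reads per kilobase in DMSO and 42.6% and 39.6% after Ponatinib. JUND and FOSL2 together went from 11.7% and 12.03% to 46.7% and 49.2%. The ratio of JUN to JUND was 2.6 and 2.49 in DMSO and 0.343 and 0.334 after Ponatinib. The ratio of FOSL1 to FOSL2 was 12.8 and 12.7 in DMSO and 1.72 and 1.44 after Ponatinib. In contrast, FOSL1 stayed at 3.84 and 3.73 times JUN in DMSO and 3.54 and 3.18 times after Ponatinib, since both fell by similar amounts. With 2 samples against 2, no exact two-sided permutation test of a share can go below p = 0.33.

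The order depended on the length used. With the length of all annotated exons, JUND exceeded FOSL1 in Ponatinib sample 2 (31.29% against 29.97%). By that length JUNB was well above BATF3 in DMSO (2.68% and 2.59% against 0.89% and 1.01%), so they lay close together only per canonical transcript. Without length, FOSL2 led the reads after Ponatinib with 45.3% and 47.5%, because its transcript is the longest. JUN genes together went from 26.0% and 26.5% to 40.8% and 41.9% per kilobase, but by reads without length from 32.6% and 33.2% to 31.6% and 31.5%, so no direction is given for the JUN genes as a class. ATF3 and BATF3 together went from 3.04% and 3.38% to 6.38% and 6.73% per kilobase.

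**Figure D3:**
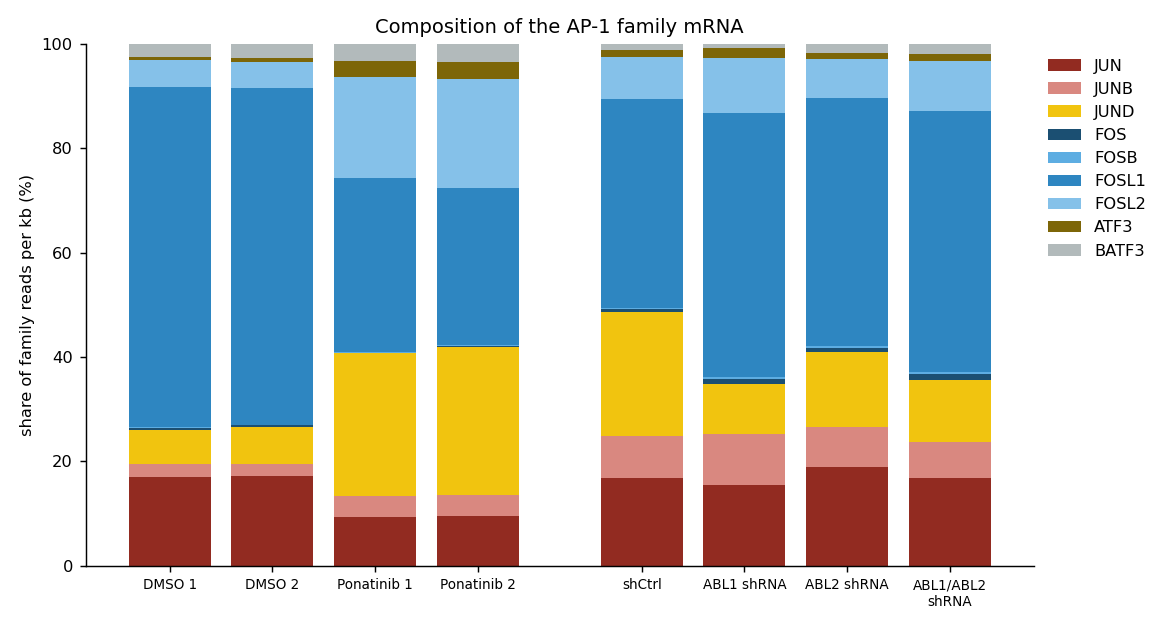
Share of each member in the family's reads per kilobase of canonical transcript (percent, y axis from 0 to 100), 1 stacked bar per sample. In the Ponatinib samples the bars for JUN and FOSL1 add up to 42.6% and 39.6%, against 82.3% and 81.8% in DMSO, and those of JUND and FOSL2 widen.

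Genes that act with AP-1 were taken as 3 lists. Of 14 other basic leucine zipper partners, 13 were tested and 10 passed, 7 higher and 3 lower, against 30.7% of all genes (15% higher and 15.7% lower), with a median log2 fold change of 0.24. JDP2, a repressor that pairs with JUN, was at 10.6 and 9.82 CPM in DMSO and 49.9 and 43.99 CPM after Ponatinib (log2 fold change 2.20, SE 0.12, edgeR adjusted p = 2.4e-09). Both treated samples were well above the controls, and per kilobase JDP2 went from 0.656 and 0.564 times ATF3 to 1.40 and 1.27 times. MAFF, a small MAF protein without an activation domain, went the other way, from 66.7 and 62.4 to 9.70 and 8.59 CPM (-2.81, SE 0.11, edgeR adjusted p = 8.1e-11). The other small MAF genes, MAFG (-0.31) and MAFK (-0.44), fell less. MAF, a large MAF factor, rose from low levels (3.48 on the log2 scale) and DDIT3, a stress-induced leucine zipper gene, rose by 1.66. ATF2 (0.24), ATF4 (0.24), CREB5 (0.56) and NFE2L2 (0.57) rose by smaller amounts. DESeq2 did not call ATF2 (adjusted p = 0.14) or CREB5 (adjusted p = 0.12). Fewer partners passed without DMSO sample 2, with no share of all genes given for that fit.

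Of 25 genes upstream of AP-1, among them MAP kinases, their kinases and the factors that drive FOS, 24 were tested and 6 passed, 2 higher and 4 lower, a share of 25% against 30.7% of all genes, with a median log2 fold change of -0.05. ELK3, a ternary complex factor that acts at serum response elements, fell by 1.13 on the log2 scale and its partner SRF by 0.51. ELK1 (-0.27) and MAP2K1, the kinase MEK1 (-0.29), fell less. RPS6KA2, a ribosomal S6 kinase, rose by 1.21 and MAPK3, the kinase ERK1, by 0.27. DESeq2 did not call ELK1 (adjusted p = 0.07) or MAPK3 (adjusted p = 0.19). The JNK genes MAPK8 (-0.08, adjusted p = 0.41) and MAPK9 (-0.06, adjusted p = 0.5) did not pass the edgeR test. DUSP1, a phosphatase of MAP kinases, was at 0.08 (adjusted p = 0.47) by the same test. The count of upstream genes was lower without DMSO sample 2 and higher without Ponatinib sample 2, with no share of all genes given for these fits.

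Of 32 genes known as AP-1 targets, 28 were tested and 21 passed, 19 lower and 2 higher, against 15.7% of all genes lower and 15% higher, with a median log2 fold change of -0.86. The interleukin gene IL1B went from 50.4 and 52.9 CPM in DMSO to 4.47 and 2.73 CPM after Ponatinib (-3.79, SE 0.15, edgeR adjusted p = 1.1e-10). The treated samples were far below both controls. HBEGF, a ligand of the EGF receptor, went from 110.1 and 107.0 to 17.4 and 17.6 CPM (-2.64). CCND1, which encodes cyclin D1, went from 970.5 and 970.4 to 318.7 and 318.4 CPM (-1.61). Of the remaining secreted factors, CSF2 (-3.21), IL11 (-2.44), CXCL8 (-2.28), IL1A (-1.73) and LIF (-1.43) fell over 2-fold. CSF2 had 52 and 68 counts in DMSO and 10 and 1 after Ponatinib, and was at -5.30 without Ponatinib sample 1 and -2.57 without Ponatinib sample 2. IL1A, with the fewest reads of these in DMSO, was at -1.35 (edgeR adjusted p = 0.064) without Ponatinib sample 1.

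The urokinase gene PLAU, which encodes a plasminogen activator, fell by 0.97 on the log2 scale and that of its receptor, PLAUR, by 2.0. ANGPTL4, an angiopoietin-like secreted protein, fell by 2.58 and PTGS2, the cyclooxygenase COX-2, fell by 1.72 on the log2 scale. The collagenase MMP1 fell by 0.48. TNC, a matrix glycoprotein, went from 115.2 and 112.4 to 98.7 and 113.8 CPM, so the groups overlapped and the test was not passed (-0.11, edgeR adjusted p = 0.31). It passed without Ponatinib sample 2 (-0.21, edgeR adjusted p = 0.008). HMOX1, a heme-degrading enzyme of the stress response, rose by 1.05, and VEGFA, an angiogenic growth factor, rose by 0.66. These lists were chosen with results of these data known, so their counts are not independent evidence of a direction.

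**Figure D4:**
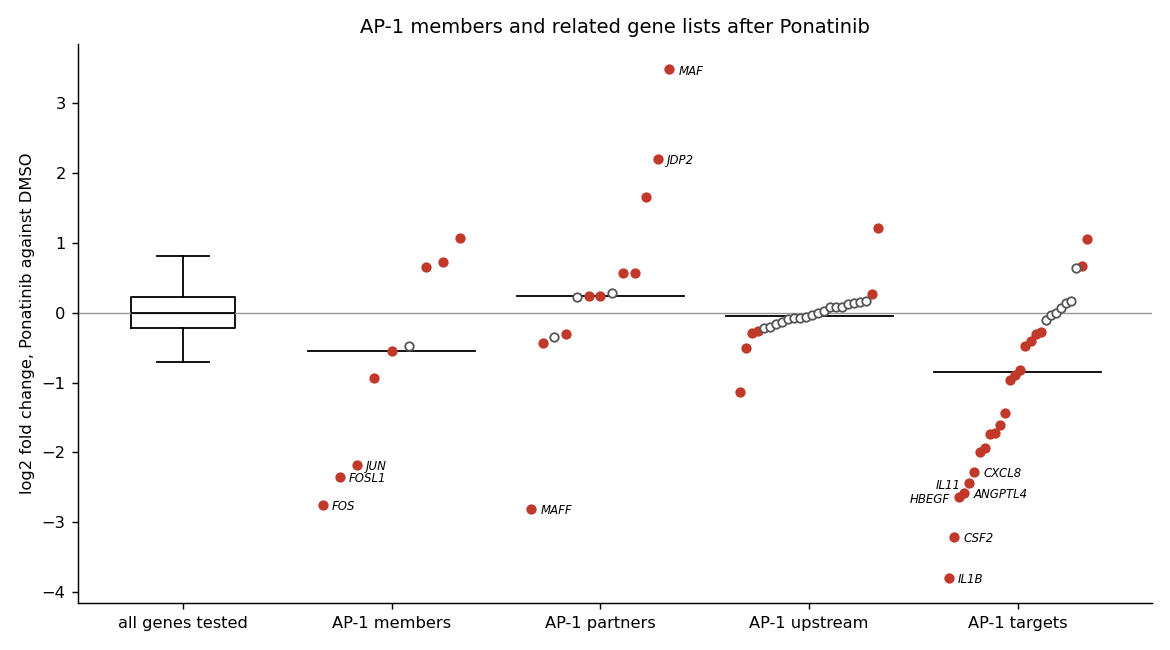
Log2 fold change after Ponatinib against DMSO (y axis) of all genes tested, the 9 AP-1 members, and the partner, upstream and target lists. The box spans the quartiles of all genes, with whiskers at the 5th and 95th percentiles. Each point in the lists is a gene, filled where it passed an adjusted p of 0.05, with a bar at the median, which is -0.55 for the members, 0.24 for the partners, -0.05 for the upstream genes and -0.86 for the targets.

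To ask whether the family differed where ABL1 or ABL2 mRNA was partly knocked down, each ABL shRNA line was compared with the single shCtrl sample that all 3 share. JUN, which did not pass the test in any line, was at 205.2 CPM in shCtrl and 187.8, 217.5 and 207.7 CPM with ABL1, ABL2 and ABL1/ABL2 shRNA. FOSL1 was at 255.1 CPM in shCtrl and 320.3, 286.6 and 322.3 CPM in the knockdown lines, above the control in each. JUND was at 172.0 CPM in shCtrl and 69.7, 98.1 and 86.0 CPM in the knockdown lines, below the control in each. A fit of the shRNA lines alone gave a coefficient of variation of 0.147. It took the 3 knockdowns as 1 group, so their differences counted as spread. Since no line has a replicate, the test of each line took its spread from the DMSO and Ponatinib pairs, where the coefficient was 0.0455. By that edgeR test, 3 members passed with ABL1 shRNA (JUND lower, FOSL1 and FOSL2 higher), 1 with ABL2 shRNA (JUND) and 5 with ABL1/ABL2 shRNA (JUND lower, FOS, FOSL1, FOSL2 and BATF3 higher), against 22% (10.6% higher and 11.4% lower), 15.6% (7.89% higher and 7.68% lower) and 17.8% (8.43% higher and 9.42% lower) of all 18275 genes. Leaving out 1 Ponatinib or DMSO sample changed some of these counts, and the shares of all genes in those fits are not given here. With an assumed coefficient of variation of 0.2, 0 members passed in each line. DESeq2 called JUND in each line and FOSL2 with ABL1 shRNA. It did not call FOSL1 with ABL1 shRNA (adjusted p = 0.074), nor FOSL1 (adjusted p = 0.074) or FOSL2 (adjusted p = 0.17) with ABL1/ABL2 shRNA. For FOS and BATF3 with ABL1/ABL2 shRNA it gave no adjusted p.

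The remaining members differed less or had few counts. FOSL2 was at 202.9 CPM in shCtrl and 260.9, 178.6 and 246.5 CPM with ABL1, ABL2 and ABL1/ABL2 shRNA, so it lay above the control in the lines with ABL1 shRNA and below it with ABL2 shRNA alone. JUNB was at 54.5 CPM in shCtrl and 65.9, 50.9 and 48.0 CPM. ATF3 was at 9.96 CPM in shCtrl and 14.0, 8.21 and 9.32 CPM. Neither gene passed the test in any line. FOSB had 40 counts in shCtrl and 71, 54 and 64 in the knockdown lines. BATF3 had 38 counts in shCtrl and 32, 63 and 74, and passed with ABL1/ABL2 shRNA alone (0.86 on the log2 scale, SE 0.29, edgeR adjusted p = 0.047).

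The ratio of JUND to shCtrl was 0.405 (95% exact binomial interval 0.374 to 0.438) with ABL1 shRNA, 0.570 (0.531 to 0.612) with ABL2 shRNA and 0.500 (0.463 to 0.539) with ABL1/ABL2 shRNA. For JUN the ratios were 0.915 (0.865 to 0.969), 1.06 (1.003 to 1.12) and 1.01 (0.957 to 1.07). The intervals cover counting error only. For JUN the edgeR adjusted p was 0.37, 0.62 and 0.99. FOS had 49 counts in shCtrl and 96, 74 and 111 in the knockdown lines, and FOS was at 2.12 (1.501 to 3.03) times shCtrl with ABL1/ABL2 shRNA.

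When the knockdown lines were taken as 1 group of 3 against shCtrl, differences between the knockdowns counted as spread. In that fit 0 members passed by edgeR, against 0.117% of 16172 genes, and 2 (JUND and FOS) had an unadjusted p under 0.05. DESeq2 called 1, JUND (adjusted p = 0.006). The shares of all genes for the unadjusted p and for DESeq2 are not given here, so these 2 counts have no background. JUND was at -1.02 on the log2 scale (SE 0.20, edgeR adjusted p = 0.11). It was at -0.90 without the ABL1 shRNA line, -1.14 without the ABL2 shRNA line and -1.04 without the ABL1/ABL2 shRNA line. These fits set 2 different knockdown lines against 1 control library, so no p-value is given for them.

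The shCtrl library stood apart from the others. Of 14440 genes, 243 differed over 2-fold between shCtrl and all 3 knockdown libraries in 1 direction, while the corresponding counts were 60 for ABL1 shRNA, 98 for ABL2 shRNA and 17 for ABL1/ABL2 shRNA. The summed level of 5 markers of other cell types was 428.5 CPM in shCtrl and 129.4, 264.9 and 169.8 CPM in the knockdown lines, most of it COL1A1, a collagen gene of fibroblasts. COL1A1 was at 404.1, 98.4, 225.0 and 137.6 CPM, the order of JUND. COL3A1 was at 3.67 CPM in shCtrl and at most 0.55 CPM in the others, and PTPRC and CD68 were near 0. PECAM1, an endothelial gene, was at 20.4 CPM in shCtrl and 30.5, 39.4 and 32.1 CPM in the others. The JUND transcript has a GC content of 69.9%, and genes with 65 to 70% GC had median log2 differences of -0.07, 0.02 and 0.08 in the 3 lines. The part of these differences in the JUND values was not tested.

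The composition of the family in the shRNA lines moved with JUND and FOSL1. Per kilobase, JUND was at 89.2 CPM in shCtrl and 36.1, 50.8 and 44.6 CPM with ABL1, ABL2 and ABL1/ABL2 shRNA. FOSL1 went the other way, from 149.9 CPM to 188.2, 168.4 and 189.4 CPM. JUND held 23.8% of the family's reads per kilobase in shCtrl and 9.71%, 14.3% and 11.8% with ABL1, ABL2 and ABL1/ABL2 shRNA. FOSL1 held 40.1% in shCtrl and 50.6%, 47.5% and 50.04% in the knockdown lines. JUN held 16.8% in shCtrl and 15.5%, 18.8% and 16.9%, and the family total was 374 CPM per kilobase in shCtrl and 372, 354 and 378 in the knockdown lines. The total thus differed little between the lines, whereas it was lower in both Ponatinib samples than in DMSO.

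The change after Ponatinib was set against that with ABL1/ABL2 shRNA by a test of the difference in the fit of all 8 samples. This sets 6 h of drug against a stable line with ABL1 at 0.576 and ABL2 at 0.625 times shCtrl. After Ponatinib, ABL2 mRNA was itself lower by 1.02 on the log2 scale (SE 0.07, edgeR adjusted p = 8.6e-08), and ABL1 was at 0.19. The difference passed for 7 of 9 members, 3 with a higher value after Ponatinib and 4 with a lower one, against 24.5% of all genes (12% and 12.5%). It was -2.22 (SE 0.11, edgeR adjusted p = 5.1e-11) for JUN, -2.70 (SE 0.13, edgeR adjusted p = 1.1e-11) for FOSL1 and 1.71 (SE 0.12, edgeR adjusted p = 3e-09) for JUND on the log2 scale. FOS differed by -3.85, BATF3 by -1.82, ATF3 by 1.15 and FOSL2 by 0.36. JUNB (-0.38, adjusted p = 0.09) and FOSB (-1.08, adjusted p = 0.11) did not pass the edgeR test. DESeq2 called 3 (JUN, FOSL1 and JUND), gave no adjusted p for FOS, FOSB and BATF3, and did not call FOSL2 (adjusted p = 0.13) or ATF3 (adjusted p = 0.23). The knockdown side of this difference is 1 library against 1, and its spread came from the DMSO and Ponatinib pairs. With an assumed coefficient of variation of 0.2 in all samples, 3 members passed (JUN, FOSL1 and FOS) and JUND did not (edgeR adjusted p = 0.065), and with 0.4, 0 passed.

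The related lists were counted in the same way in the shRNA lines. Among 28 tested targets, 12 were higher and 5 lower with ABL1 shRNA, 13 and 5 with ABL2 shRNA, and 10 and 6 with ABL1/ABL2 shRNA. Among all genes, 10.6% were higher and 11.4% lower, 7.89% and 7.68%, and 8.43% and 9.42%, in the same order. The medians were 0.22, 0.28 and 0.14 on the log2 scale, while it was -0.86 after Ponatinib. IL11 was at 25.2 CPM in shCtrl and 161.2, 24.6 and 137.3 CPM in the lines with ABL1, ABL2 and ABL1/ABL2 shRNA, and CXCL8 was at 384.4 CPM in shCtrl and 132.3, 112.7 and 74.1 CPM in them. Of 14 partners, 4 rose and 1 fell with ABL1 shRNA, 1 and 1 with ABL2 shRNA, and 3 and 2 with ABL1/ABL2 shRNA. Of 25 upstream genes, 2 rose and 9 fell, 2 and 5, and 1 and 10. With the 3 lines as a group, 0 of the 67 list genes tested passed by edgeR, against 0.117% of all genes, and 14 had an unadjusted p under 0.05. DESeq2 called 5 (AREG, CXCL8, IL6, PLAU and TIMP1). For the unadjusted p and for DESeq2, the shares of all genes are not given here.

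The genes whose profiles over the 8 samples were most like JUN, by the root mean square difference of log2(CPM + 1) centred within the drug and shRNA sets among 9562 genes, were SEMA7A (0.136), CDC42EP2 (0.143), FOSL1 (0.149), NAV3 (0.153) and ARHGAP22 (0.182). For FOSL1 they were CDC42EP2 (0.0478), SEMA7A (0.109), HBEGF (0.113), JUN (0.149) and CD274 (0.158). JUN and FOSL1 were thus among each other's 5 nearest. For JUND, which was higher after Ponatinib and lower in the knockdown lines, they were LGALS3 (0.139), STAT2 (0.139), SLC5A3 (0.143), HEG1 (0.145) and IGDCC4 (0.146).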

How the data were processed

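Total RNA of 8 LM2 samples was sequenced (NEBNext Ultra RNA kit, Illumina HiSeq). The authors mapped the reads to hg38 with Bowtie/TopHat, and the submitters' processing notes name FastQC, TopHat and HTSeq 0.6.0. The deposited values are raw read counts per gene, with no normalization by the authors; the annotation release, strand setting and filters are not given in the sources used here. In the shRNA files, reads assigned to no feature made up 9.48 to 9.90% and ambiguous reads 6.12 to 6.32%, and these rows were left out. The first lines of the shCtrl file and the ABL1 shRNA file each carry a name of the other sample. Their labels were followed. Of 58688 gene IDs, 54836 matched a symbol. Positions are from GENCODE v44.

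Differential expression was tested on the counts in R 4.3.3 by edgeR 4.0.16 (TMM, filterByExpr, prior count 0.125, quasi-likelihood test, Benjamini-Hochberg adjustment over all genes tested). Ponatinib was tested in its 4 samples. Each knockdown was tested in a fit of all 8, in which only the DMSO and Ponatinib groups have replicates to estimate the spread, and the 3 knockdowns as a group in the 4 shRNA samples. Replicates differed by more than sampling noise (chi-square per degree of freedom 1.44 and 3.12). The scripts were checked on simulated data. All members are named, with list genes past an adjusted p of 0.05 and a fold of 2 after Ponatinib, MMP1, PTGS2, ANGPTL4, TNC and CCND1, ABL1 and ABL2, and 5 profile neighbours of JUN, FOSL1 and JUND among genes with a mean of at least 10 CPM in both sets; 1 such list gene is not reported here, and smaller list changes and marker genes were named after their values were seen. The members and lists were chosen with earlier results of these data known. Alternatives were DESeq2 1.42.0 and its size factors, other filters and prior counts, a replicate block, assumed coefficients of variation, leaving out samples, other lengths and, added after seeing the data, subtraction of the median of each GC bin, the length of all exons and the assumed coefficients of variation for the difference between Ponatinib and knockdown.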

Additional observations from a re-analysis of the deposited data

How the results depend on the processing

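The direction and side of the threshold of every member after Ponatinib were kept in all 107 alternatives run. GC subtraction and the other prior count alter only the fold change. With them the side of the threshold could not move, so they test the direction alone. The strict filter of 10 counts in every sample left FOS untested, so 7 members passed there in place of 8. Some list counts moved with single samples, and the shares of all genes in those fits are not given here. The partners went from 10 to between 6 and 10 (6 without DMSO replicate 2), and the upstream genes from 6 to between 3 (without DMSO replicate 2) and 11 (without Ponatinib replicate 2). TNC ran from -0.209 without Ponatinib replicate 2 to 0.00894 without Ponatinib replicate 1 on the log2 scale. The share of JUN and FOSL1 differed by -40.95 percentage points after Ponatinib, and by -45.62 in reads without length.

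The shRNA counts were less stable, and the share of all genes in each alternative is not given here. When 1 DMSO or Ponatinib sample was left out, the count went from 3 to between 3 and 6 with ABL1 shRNA, from 1 to between 1 and 3 with ABL2 shRNA and from 5 to between 3 and 5 with ABL1/ABL2 shRNA. With a coefficient of variation of 0.2 or 0.4, all 3 were 0. DESeq2 called 1 with ABL1/ABL2 shRNA, 1 with the 3 lines as a group, and 3 for the difference from Ponatinib in place of 7. That count was 3 with a coefficient of variation of 0.2 and 0 with 0.4, a setting chosen for the difference after seeing the data. Leaving out 1 line moved the group count from 0 to between 0 and 2. JUN went from 0.02 to -0.0229 with ABL1/ABL2 shRNA after GC subtraction. In the group comparison JUN went to 0.00198 with 10 counts in every sample, and ran from -0.0526 to 0.055 with 1 line left out. JUNB went to -0.0339 after GC subtraction and ran from -0.138 to 0.0992, and ATF3 ran from -0.182 to 0.232. None of these was past the threshold. The cause was not tested. Of 850 values for single genes, 785 kept direction and call, 42 lost the call, 16 gained it and 7 changed sign. The 850 include GC subtraction and the other prior count, where the call could not change. They also include knockdown fits without a DMSO or Ponatinib sample, which leave the shRNA counts as they are. The 785 are therefore no measure of how stable the calls are.

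DMSO and Ponatinib samples with the same repeat number showed no shared deviation (correlation -0.02 over 9421 genes). With 1 difference per group, this cannot tell whether the samples were paired. With the replicate block, 8 members, 10 partners, 6 upstream genes and 21 targets passed after Ponatinib, as without it. With 1 sample per shRNA line, no paired analysis was possible there.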
